A study of Mus musculus with 9 samples.

Results

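The genes described here are those of cell division: the helicase that opens DNA for replication, the enzymes that supply nucleotides, the cyclins and Cdk1, the kinases of mitosis and its checkpoint, and the proteins of the centromere, spindle and cytokinesis. They were chosen by name, 37 genes in all, and 34 had a probe on the arrays, of 19084 named genes there. Pcna, Ccnb1 and Cdc20 were not analysed here. Each gene was read from its brightest probe by the mean of the 9 arrays, and no filter on dim probes was applied, so all 34 entered the test.

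RNA came from the olfactory mucosa of male C57BL/6 wild-type mice, 6 to 8 weeks old, on 9 arrays in 3 groups of 3. Control mice (Ctrl) received saline for 2 weeks, 1-day mice (D1) received dexamethasone, a synthetic glucocorticoid, for 1 day, and 2-week mice (WK2) received it daily by intraperitoneal injection at 1 mg/kg for 2 weeks. The labels give that dose beside the 2-week group and do not restate it for the 1-day group, and the 1-day group also differs from its control in how long injections went on. Each treatment arm held 9 mice, and the samples hybridised were those with the best expression of Omp, a gene of mature olfactory neurons, so the groups are a selection by a neuronal gene. Whether each sample stands for another animal is not stated in the labels, and the p-values therefore describe the spread among the samples hybridised, part or all of which may be technical.

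A cell that divides first loads the Mcm2 to Mcm7 helicase onto DNA, copies the genome under cyclin E and cyclin A kinases, and then enters mitosis under Cdk1, after which the spindle separates the chromosomes. Many of these genes are transcribed in waves, the replication genes through E2F factors and the mitotic genes through the NF-Y, Myb and Foxm1 machinery. In the olfactory mucosa the dividing cells are mainly the globose basal cells, which renew the sensory neurons throughout life, while the tissue around it holds vessels, bone and blood cells that may divide as well. In such bulk RNA, fewer dividing cells and less RNA per dividing cell cannot be told apart.

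Promoters are shown first, because members of such gene sets are transcribed together. RefSeq promoters (mouse assembly GRCm38.p6) were found for 27 of the 34 measured genes, as 29 entries, and the 250 bases before each start site were searched on both strands. The letters CCAAT, the NF-Y box, lay in 25 of the 29 entries (86.2%), against 33.8% of all 32851 entries. The core letters of the cell cycle homology element, TTTGAA with the related form TTCGAA, lay in 34.5% of the entries against 17.1% of all. Letters of E2F sites were searched as GCGCGAA, as the related form GCGGGAA and as the further form GCGCCAA. They lay in 27.6% against 6.69% of all, and in no entry of these genes did they share bases with a CCAAT box. Among helicase entries 4 of 6 held E2F letters, against 1 of 5 entries of the spindle genes and 0 of 5 of the mitotic kinases. A match is a description of letters and not a binding site.

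The promoters of Mcm5 and Mcm6 stand for the helicase set, those of Top2a and Hmmr for mitotic genes that stood high in the 2-week group, and that of Mki67 for the gene of lowest difference there; they were picked after the values were seen. Each runs 5′ to 3′ on the gene's strand and ends at the base before the start site, and capitals mark the searched letters on either strand.
Mcm5 (chr8:75109259-75109508, plus strand): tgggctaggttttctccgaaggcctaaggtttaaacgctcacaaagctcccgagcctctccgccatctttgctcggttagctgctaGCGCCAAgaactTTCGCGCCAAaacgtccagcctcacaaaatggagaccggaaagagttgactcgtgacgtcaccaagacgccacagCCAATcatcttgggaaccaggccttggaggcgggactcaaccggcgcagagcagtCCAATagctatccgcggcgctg
Mcm6 (chr1:128359706-128359955, minus strand): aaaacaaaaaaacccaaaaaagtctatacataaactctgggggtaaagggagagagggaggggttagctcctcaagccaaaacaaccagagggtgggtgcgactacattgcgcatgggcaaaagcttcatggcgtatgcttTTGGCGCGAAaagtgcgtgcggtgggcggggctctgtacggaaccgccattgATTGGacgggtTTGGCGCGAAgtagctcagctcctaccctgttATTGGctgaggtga
Top2a (chr11:99024190-99024439, minus strand): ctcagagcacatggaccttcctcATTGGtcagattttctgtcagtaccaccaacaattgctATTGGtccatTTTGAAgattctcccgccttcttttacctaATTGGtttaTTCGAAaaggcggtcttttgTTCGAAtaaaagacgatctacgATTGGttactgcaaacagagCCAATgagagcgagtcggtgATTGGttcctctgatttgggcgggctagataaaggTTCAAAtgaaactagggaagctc
Hmmr (chr11:40733438-40733687, minus strand): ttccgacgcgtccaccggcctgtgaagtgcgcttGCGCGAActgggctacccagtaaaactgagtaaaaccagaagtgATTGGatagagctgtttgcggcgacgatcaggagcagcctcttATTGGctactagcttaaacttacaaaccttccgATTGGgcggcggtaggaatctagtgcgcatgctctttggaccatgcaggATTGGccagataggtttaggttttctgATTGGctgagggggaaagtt
Mki67 (chr7:135716380-135716629, minus strand): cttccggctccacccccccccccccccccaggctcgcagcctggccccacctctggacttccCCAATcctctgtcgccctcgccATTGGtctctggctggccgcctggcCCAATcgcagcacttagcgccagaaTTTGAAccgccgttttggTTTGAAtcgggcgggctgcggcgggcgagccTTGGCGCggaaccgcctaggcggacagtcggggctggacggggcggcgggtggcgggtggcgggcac
Mcm5 and Mcm6 each held 2 CCAAT boxes, with 3 and 4 matches to E2F letters. In both promoters some of these matches share bases, as 1 stretch read on opposite strands, so the separate stretches are fewer. Top2a held 6 CCAAT boxes and 4 core letters of the homology element, and Hmmr held 5 CCAAT boxes and 1 match to E2F letters. Mki67 held letters of all 3 kinds.

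None of the 34 cell cycle genes passed the test in any comparison. The limma test, on log2(intensity + 50) with all 9 arrays in 1 fit and Benjamini-Hochberg adjustment over 23631 features, called genes at an adjusted p under 0.05. At that threshold 0 members were called in the 1-day group against control, where 0% of all features were called. In the 2-week group against control 0 members were called beside 1.61% of all features, and in the 2-week group against the 1-day group 0 beside 0.0931%. The comparisons share arrays with each other, so they are not independent.

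**Figure D1:**
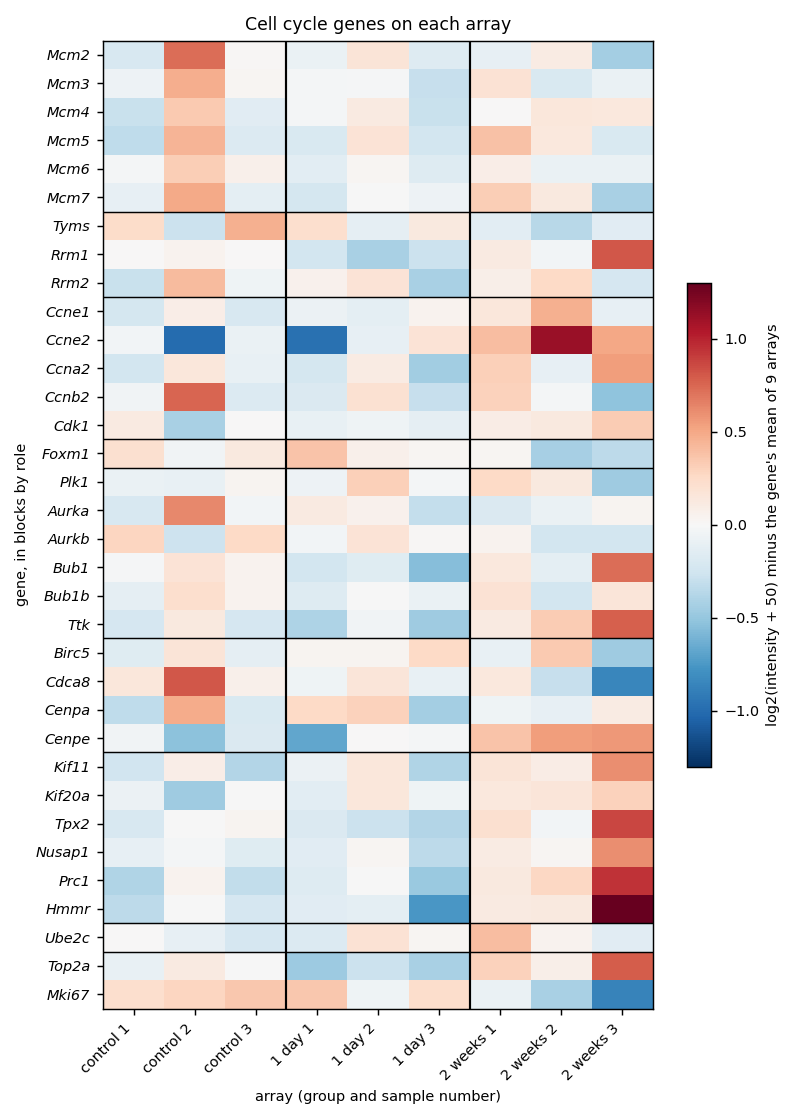
Each row is 1 of the 34 cell cycle genes, in blocks by role, and each column 1 array; colour gives log2(intensity + 50) minus the gene's mean of 9 arrays. Control sample 2 is the darkest red for Mcm2 to Mcm7, and 2-week sample 3 for the 6 spindle genes from Kif11 to Hmmr.

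After 1 day the differences were small. The median of the 34 log2 differences was -0.08 against 0.03 for all features, with 12 genes above and 22 below control. The median was -0.19 without control sample 1 and -0.02 without control sample 2, -0.16 without 1-day sample 2 and -0.03 without 1-day sample 3. The differences ran from -0.40 (Top2a) to 0.16 (Kif20a), and their 95% intervals reached from -0.93 (Cdca8) to 0.85 (Ccne2). At an unadjusted p under 0.05 there were 0 members, beside 2.00% of all features. The groups did not overlap for 3 members, Top2a, Bub1 and Rrm1, all lower, which is 8.82% of the members; in all features 10.1% did not overlap, 4.92% higher and 5.19% lower.

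After 2 weeks the members spread further in both directions. Their median difference from control was 0.13, beside 0.14 for all features, with 20 above and 14 below. That median was 0.00 (17 above and 17 below) without control sample 1, 0.22 (26 and 8) without control sample 2, 0.07 without control sample 3 and 0.04 without 2-week sample 1. It was 0.02 without the dimmest 25% of features, and 0.05, 0.03 and 0.08 with quantile normalization, median centring and cyclic loess. At an unadjusted p under 0.05 there were 7 higher and 2 lower, 26.5% of the members, beside 29.7% of all features (17.3% higher and 12.4% lower). This balance turned with the scaling, to 3 higher and 4 lower with quantile normalization, 2 and 4 with median centring and 4 and 4 with cyclic loess, and it was 2 and 2 without control sample 1, 4 and 4 without control sample 2, 3 and 2 without control sample 3 and 3 and 1 without 2-week sample 3. The groups did not overlap for 8 members (23.5%, beside 37.6% of all features, 23.8% higher and 13.8% lower): Ccne2, Cenpe, Kif11, Kif20a, Nusap1, Prc1 and Hmmr were higher and Mki67 lower. Against the 1-day group the median was 0.14, beside 0.10 for all features, with 24 above and 10 below. It was 0.07 without 2-week sample 1 and 0.21 without 2-week sample 3, where 7 members had an unadjusted p under 0.05. With all 9 arrays, 11 members were higher than the 1-day group and 3 lower without overlap (41.2%, beside 31.4% of all features, 18.7% higher and 12.6% lower). At an unadjusted p under 0.05, again with all 9 arrays, there were 9 higher and 2 lower (32.4%, beside 19.2% of all features, 8.96% higher and 10.2% lower). The shift of all features by 0.14 in the 2-week group depends on scaling, and was 0.01 under quantile normalization and 0.04 under median centring.

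The helicase genes Mcm2 to Mcm7, which encode the subunits of the ring that unwinds DNA at the replication fork, were all highest in the same control sample. Mcm2 had an intensity of 1551, 3019 and 1821 in control samples 1 to 3, 1702, 2027 and 1605 after 1 day, and 1676, 1953 and 1312 after 2 weeks. Control sample 2 was highest and 2-week sample 3 lowest, and the groups overlapped. Its log2 difference was -0.20 ± 0.25 (SE) after 1 day and -0.32 ± 0.25 after 2 weeks (limma, adjusted p = 1.00 and 0.379).

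Mcm3 stood at 1217, 1781 and 1300 in control, 1251, 1262 and 1028 after 1 day, and 1454, 1105 and 1198 after 2 weeks, again with control sample 2 on top and overlap between groups. Mcm6 read 4268, 5418 and 4552 in control, 3946, 4433 and 3849 after 1 day, and 4621, 4091 and 4079 after 2 weeks. For Mcm3 and Mcm6 the 1-day differences were -0.26 ± 0.18 and -0.21 ± 0.15 (SE; limma, adjusted p = 1.00 for both). For Mcm4, Mcm5 and Mcm7 the 2-week differences from control lay between -0.08 and 0.13.

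Over the helicase set, 6 of 6 lay below control after 1 day, with a median of -0.19. Without control sample 2 there were 4 above and 2 below, with a median of 0.05. Without 1-day sample 3 there were 2 above and 4 below, under quantile normalization and cyclic loess 1 above and 5 below, and with array weights 3 and 3. Control sample 2 held the highest value for 6 of 6 helicase genes, with a median of 0.45 above each gene's mean. It was also highest for 12 of all 34 members (35.3%). Over all features the same array was highest for 10.2% and lowest for 32.3%, with a median deviation of -0.11.

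Markers of red cell precursors, which divide in marrow, were high on the same array. The 10 measured erythroid markers were highest in control sample 2 in 8 of 10 cases (median deviation 0.72). In 1-day samples 1 to 3 they stood at 0.24, 0.47 and -0.67, and the helicase genes at -0.11, 0.07 and -0.21. Klf1, an erythroid transcription factor, read 1082, 3164 and 1409 in control. Granulocyte precursor markers had another order: 7 of 11 were highest in 1-day sample 2 (median deviation 1.43), where the helicase genes stood at 0.07, 4 of 11 were highest in control sample 2 (1.00), and 10 of 11 were lowest in control sample 1. Mpo, myeloperoxidase, read 2165, 17293 and 6311 in control and 17095, 25514 and 5446 after 1 day. The summed intensity of the erythroid list was 115915 to 256126 in control, 105789 to 272649 after 1 day and 166673 to 332789 after 2 weeks. For granulocyte precursors it was 135573 to 309813, 199741 to 588076 and 207318 to 326316. Their part in the helicase result was not tested.

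**Figure D2:**
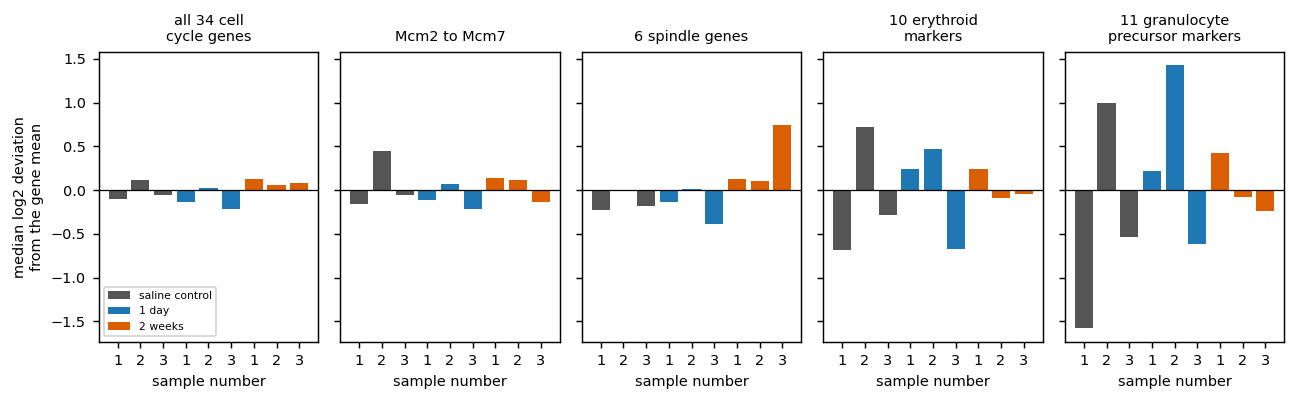
Bars give, for each array, the median over a gene list of the log2 deviation from each gene's mean of 9 arrays; grey is control, blue 1 day and orange 2 weeks, with sample numbers on the x axis. Control sample 2 stands at 0.45 for Mcm2 to Mcm7, 0.72 for erythroid and 1.00 for granulocyte precursor markers, which are higher still in 1-day sample 2 (1.43), while 2-week sample 3 stands at 0.74 for the spindle genes and at -0.04 and -0.24 for those markers.

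Of the enzymes that supply DNA precursors, Rrm1, the large subunit of ribonucleotide reductase, stood apart between the treated groups. It read 1301, 1342 and 1302 in control, 1097, 959 and 1063 after 1 day, and 1410, 1267 and 2316 after 2 weeks. All 1-day samples were below all others, and 2-week sample 3 was well above the rest. The difference was -0.33 ± 0.21 (SE) after 1 day against control and 0.61 ± 0.21 for 2 weeks against 1 day (limma, adjusted p = 1.00 and 0.19). A dimmer Rrm1 probe gave -0.04 and 0.47 in the same comparisons. Rrm2, the small subunit, lay at -0.09 and 0.10, and Tyms, thymidylate synthase, at -0.07 and -0.29.

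Among the cyclins, Ccne2, a cyclin E that drives entry into S phase, had the highest difference of all members in the 2-week group. Its intensity was 1085, 535 and 1049 in control, 546, 1032 and 1271 after 1 day, and 1489, 2491 and 1603 after 2 weeks. All 2-week samples exceeded all others, and control sample 2 and 1-day sample 1 were low. The 2-week value was 2.07-fold the control (log2 1.05 ± 0.35 SE; limma, adjusted p = 0.0948). A second probe gave 0.66 ± 0.23, and on it control sample 2 was the highest control at 430, not the lowest. Ccne1 lay at 0.28, Ccna2 (cyclin A) at 0.31 and Ccnb2 (cyclin B) at -0.26 in that comparison.

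Cdk1, the kinase that starts mitosis, was dim, so its fold change is compressed by the added 50. It read 120, 67.1 and 108 in control, 96.6, 101 and 95.2 after 1 day, and 118, 122 and 148 after 2 weeks. The 1-day samples lay within the control range, and the 2-week samples overlapped it. The differences from control were 0.01 ± 0.17 and 0.29 ± 0.17 (SE; limma, adjusted p = 1.00 and 0.258). The sign after 1 day turned under several settings, quantile normalization among them (-0.09). Foxm1, a transcription factor of mitotic genes, had mean intensities of 1256 ± 113 (SD, n = 3) in control, 1311 ± 182 after 1 day and 984 ± 181 after 2 weeks, with the highest 2-week sample (1189) just below the lowest 1-day sample (1191) (-0.40 ± 0.17 SE; limma, adjusted p = 0.243).

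The mitotic kinases were divided. Ttk, the Mps1 kinase of the spindle checkpoint, read 413, 541 and 415 in control, 359, 472 and 342 after 1 day, and 535, 630 and 879 after 2 weeks. All 2-week samples exceeded the 1-day samples, and 2-week sample 1 lay just under control sample 2. The differences were 0.51 ± 0.20 (SE) from control and 0.71 ± 0.20 from 1 day (limma, adjusted p = 0.135 and 0.156), and a second probe gave 0.47 and 0.54.

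Bub1, another checkpoint kinase, stood at 881, 1018 and 925 in control, 748, 795 and 590 after 1 day, and 983, 812 and 1511 after 2 weeks. The 1-day samples were below all others. Its difference after 1 day was -0.39 ± 0.22 (SE; limma, adjusted p = 1.00), and its dimmer probe gave 0.14. After 2 weeks the brightest Bub1 probe differed from control by 0.17 and the dimmer one by 0.60. Plk1, Aurka, Aurkb and Bub1b differed from control by -0.23 to 0.12 in both comparisons.

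At the centromere, Cenpe, the kinesin that carries chromosomes to the spindle equator, was among the members with the smallest p. It read 512, 353 and 461 in control, 314, 532 and 521 after 1 day, and 702, 796 and 808 after 2 weeks. The 2-week samples stood together above all others. Cenpe was 1.68-fold higher than control (log2 0.75 ± 0.21 SE; limma, adjusted p = 0.0709) and did not pass.

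Cdca8, borealin of the chromosomal passenger complex, went the other way. It read 1116, 1794 and 1053 in control, 965, 1125 and 937 after 1 day, and 1111, 808 and 536 after 2 weeks. Control sample 2 was high and 2-week sample 3 low, and the groups overlapped (log2 -0.67 ± 0.27 SE after 2 weeks and -0.34 ± 0.27 after 1 day; limma, adjusted p = 0.133 and 1.00). Cenpa, the centromeric histone, lay at 0.00. Birc5, survivin, lay at -0.03 on its brightest probe and at 0.31 on the next, and 2-week sample 3 was the lowest array of the brightest probe (2655) and the highest of the next (4399).

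The 6 spindle and cytokinesis genes lay on the same side of control after 2 weeks. In the 2-week group 6 of 6 lay above control, with a median of 0.44, and 6 of 6 above the 1-day group, with a median of 0.52; 0 passed the test. They were the motors Kif11 (0.47) and Kif20a (0.38), the spindle proteins Tpx2 (0.41), Nusap1 (0.34) and Hmmr (0.72), and the midzone protein Prc1 (0.66). After 1 day 3 lay above and 3 below control. In 5 of 6 the 2-week samples were above control without overlap, among them Kif20a and Nusap1, which were dim (control means of 143 and 152). At an unadjusted p under 0.05 there were 4 higher, but 1, 0 and 1 with quantile normalization, median centring and cyclic loess. Over all features 14816 of 23631 lay above control, 23.8% did so without overlap and 17.3% were higher at that unadjusted p.

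Prc1 read 9519, 12889 and 10001 in control, 11143, 12438 and 8944 after 1 day, and 13651, 15034 and 23951 after 2 weeks. The 2-week samples were above all others, and sample 3 was far above its group (log2 0.66 ± 0.23 SE; limma, adjusted p = 0.106). Tpx2 read 879, 1017 and 1050 in control, 889, 833 and 771 after 1 day, and 1192, 994 and 1905 after 2 weeks. Its 2-week samples exceeded the 1-day samples (0.63 ± 0.22 SE; limma, adjusted p = 0.19) and overlapped control.

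Sample 3 of the 2-week group stood above the other samples. In 2-week sample 3 the spindle genes were highest in 6 of 6 cases, with a median deviation of 0.74, beside 0.13 and 0.11 in samples 1 and 2, and Hmmr read 2766, 2796 and 6554. In 1-day sample 3 they were lowest in 5 of 6 cases. Without 2-week sample 3 the median against control was 0.31, and 6 of 6 still lay above; under quantile normalization, median centring and cyclic loess it was 0.29 to 0.34 with 6 of 6 above. Over all features the same array was highest for 31% and lowest for 20.8%. Of the cell type markers, those of macrophages had the highest median deviation in 2-week sample 3 (0.46, with 4 of 7 highest there), followed by sustentacular cells (0.41, 4 of 5) and B lineage precursors (0.39, 4 of 10). The summed intensity of macrophage markers was 56738 to 63320 in control, 47643 to 78581 after 1 day and 51945 to 78804 after 2 weeks. For sustentacular markers it was 667325 to 792966, 774124 to 891846 and 880488 to 1014823, and for B lineage markers 56741 to 68505, 55583 to 62896 and 47967 to 50413. Gene by gene the B lineage list went the other way after 2 weeks, with 7 above and 3 below control and a median of 0.44. Ebf1, a bright member of that list, read 29446, 30907 and 30856 in control and 18745, 21735 and 19078 after 2 weeks. The part of these cell type markers in the spindle result was not tested.

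**Figure D3:**
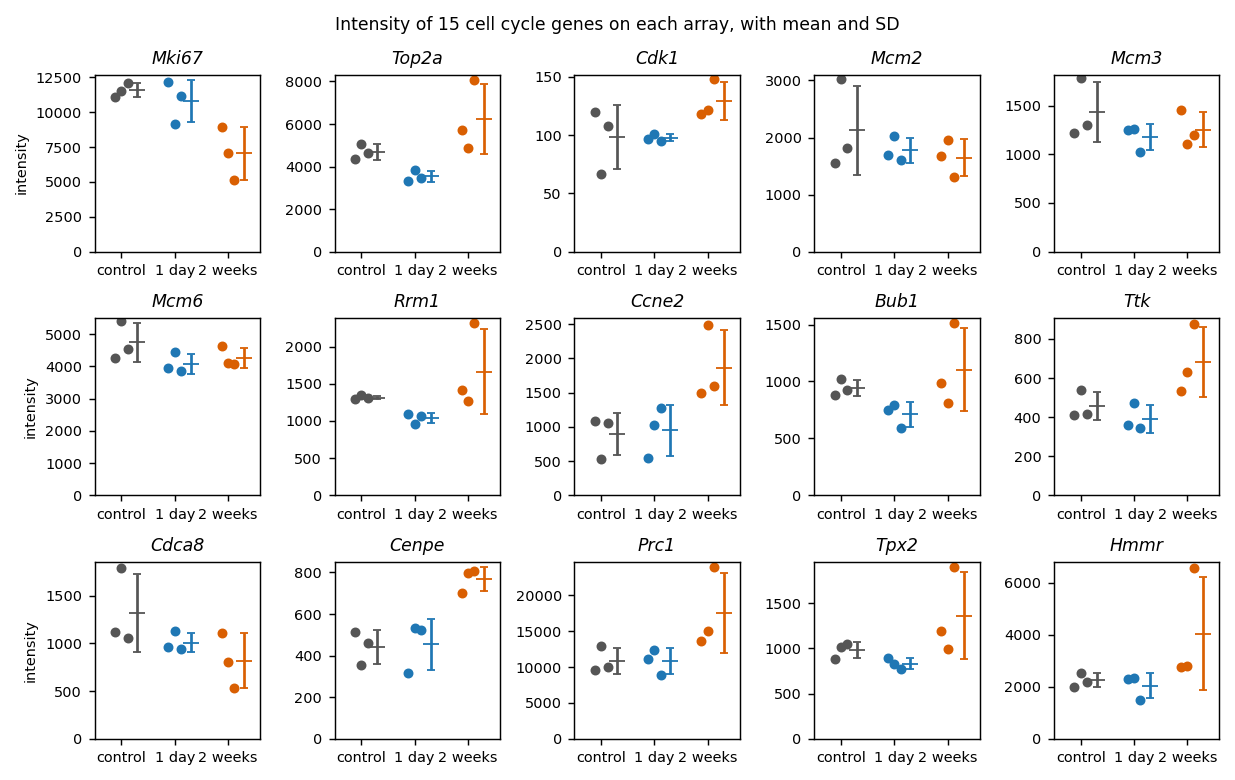
Intensity of 15 cell cycle genes on each array (points) with the group mean and SD (bars, n = 3) for control, 1 day and 2 weeks; each linear axis starts at 0 and has its own scale. Cenpe, Ccne2 and Prc1 lie above all other samples after 2 weeks, Mki67 lies below, and 2-week sample 3 is the top point for Top2a, Rrm1, Bub1, Ttk, Tpx2 and Hmmr.

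The best known proliferation markers, Top2a and Mki67, disagreed after 2 weeks when each was read from its brightest probe. Top2a, topoisomerase II alpha, which untangles chromosomes, read 4352, 5059 and 4647 in control, 3329, 3821 and 3454 after 1 day, and 5722, 4890 and 8086 after 2 weeks. The 1-day samples were below all others, and 2-week sample 3 was high. Top2a differed by -0.40 ± 0.19 (SE) after 1 day and 0.38 ± 0.19 after 2 weeks from control, and by 0.78 ± 0.19 between the treated groups (limma, adjusted p = 1.00, 0.203 and 0.129). Ube2c, the ubiquitin-conjugating enzyme of the anaphase-promoting complex, lay at 0.12 and 0.21 against control.

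Mki67, which encodes the Ki-67 protein used to stain dividing cells, read 11079, 11541 and 12104 in control, 12149, 9130 and 11142 after 1 day, and 8951, 7060 and 5169 after 2 weeks on its brightest probe. All 2-week samples were below all others. This was 1.67-fold lower than control (log2 -0.74 ± 0.20 SE; limma, adjusted p = 0.0685). It passed under median centring (-0.84, adjusted p = 0.0418), without the dimmest 50% of features (adjusted p = 0.0487) and without 2-week sample 1 (-0.93, adjusted p = 0.0438).

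The other Mki67 probe did not share this. It read 2340, 2888 and 2754 in control, 2166, 2662 and 2092 after 1 day, and 3278, 2734 and 3237 after 2 weeks, so that 2 of the 2-week samples were its highest values (0.21 ± 0.16 SE from control). For 2 weeks against 1 day it gave 0.41, where the brightest probe gave -0.64, and after 1 day it gave -0.20. Its sign was that of Top2a in all 3 comparisons. With the mean of both Mki67 probes the 2-week difference from control was -0.27 (limma, adjusted p = 0.236). Which probe reports the transcript better was not tested. Second probes of Ttk and Tpx2 kept the sign of the brightest in all 3 comparisons.

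**Figure D4:**
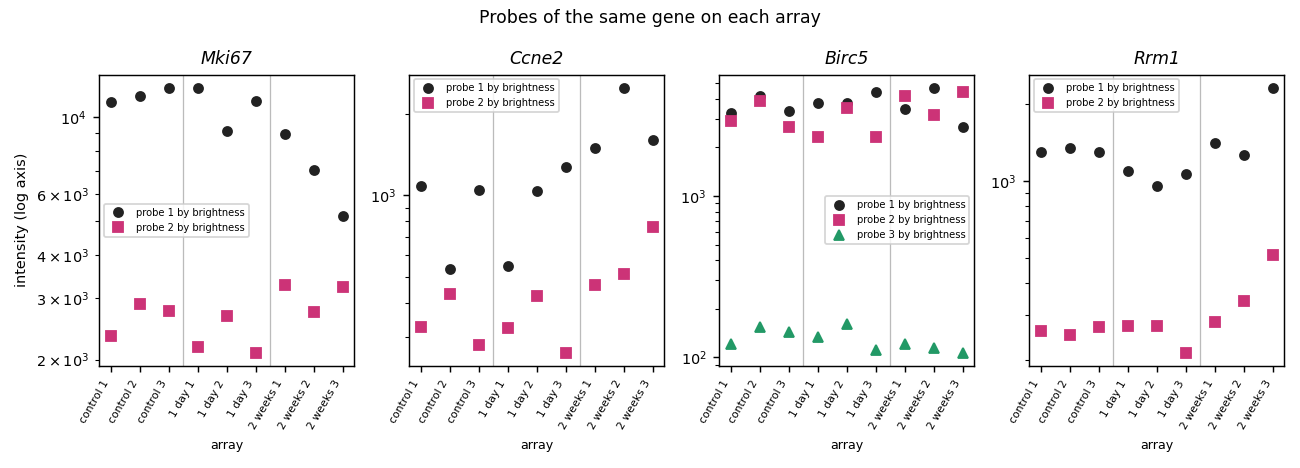
Intensity on a log axis of each probe of Mki67, Ccne2, Birc5 and Rrm1 on the 9 arrays, with the brightest probe as circles, the next as squares and the third as triangles. The Mki67 circles drop to 5169 in 2-week sample 3 while the squares read 3237 there, whereas both Rrm1 probes are highest in that array.

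The wider cell cycle lists held 2 genes that passed, both higher in the 2-week group against control, where 0.432% of all features were called higher and 1.18% lower. Brca1, a DNA repair gene expressed in S phase, read 434, 304 and 463 in control, 460, 488 and 591 after 1 day, and 809, 1178 and 810 after 2 weeks. It rose 2.18-fold (log2 1.12 ± 0.20 SE; limma, adjusted p = 0.0422). Melk, a mitotic kinase, read 767, 678 and 716 in control, 640, 868 and 769 after 1 day, and 1099, 1535 and 1560 after 2 weeks. It rose 1.86-fold (log2 0.90 ± 0.18 SE; limma, adjusted p = 0.0475). For both genes all 2-week samples were above all others. Both calls ended with any 1 array left out except 2-week sample 1 (limma, adjusted p 0.0645 to 0.148), with the replicate number as a block (0.105 for both), and in a fit of control and 2-week arrays alone (0.112 for both).

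Of 39 further replication genes, Brca1 was the 1 that rose and 0 fell, with 23 above and 16 below control and a median of 0.10. Of 71 further mitosis genes, Melk rose and 0 fell, with 56 above and 15 below and a median of 0.27, beside 0.14 for all features. On 2-week sample 3 these mitosis genes were highest in 42 of 71 cases. In the 1-day group 0 of either list passed, with medians of -0.09 for both. The genes of smallest p there were Asf1b and Rfc3 (both -0.34), Smc2 (-0.35) and Iqgap3 (-0.30). Between 2 weeks and 1 day 0 passed, with the smallest p for Melk (0.83), Brca1 (0.79), Pbk (0.78) and Dtl (0.69).

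The upstream regulators did not pass in any comparison. Of 11 genes of G1 control, 5 lay above and 6 below control after 2 weeks, among them Ccnd3, a cyclin D, at 0.75 ± 0.30 (SE) and Myc at -0.84 ± 0.31 (limma, adjusted p = 0.135 and 0.118). After 1 day Cdk6 lay at 0.37 and Cdc7 at -0.24. Between 2 weeks and 1 day Ccnd1 differed by -0.38 and Ccnd3 by 0.54.

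Of 8 genes of cyclin-dependent kinase inhibitors, 4 lay above and 4 below control after 2 weeks, with a median of 0.06. Cdkn2a, which encodes p16 and ARF, lay at 1.28 ± 0.42 (SE) and Cdkn3, a phosphatase of Cdk, at 0.98 ± 0.32 in that comparison (limma, adjusted p = 0.0918 and 0.0906). After 1 day they lay at 0.62 and 0.34, and between the treated groups Cdkn3 lay at 0.63 and Cdkn1c at 0.32. Of 15 genes of the Rb and E2F family and their partners, 3 lay above and 12 below control. E2f4, the main E2F of resting cells, read 885, 1432 and 940 in control and 506, 586 and 444 after 2 weeks, with no overlap (-0.99 ± 0.22 SE; limma, adjusted p = 0.0551). Mybl2, a Myb transcription factor of mitotic genes, lay at -0.44 ± 0.14 (limma, adjusted p = 0.0915). After 1 day E2f4 lay at -0.45 and E2f7 at -0.16, and between the treated groups Rbl2 lay at -0.47 and Lin9 at 0.61.

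**Figure D5:**
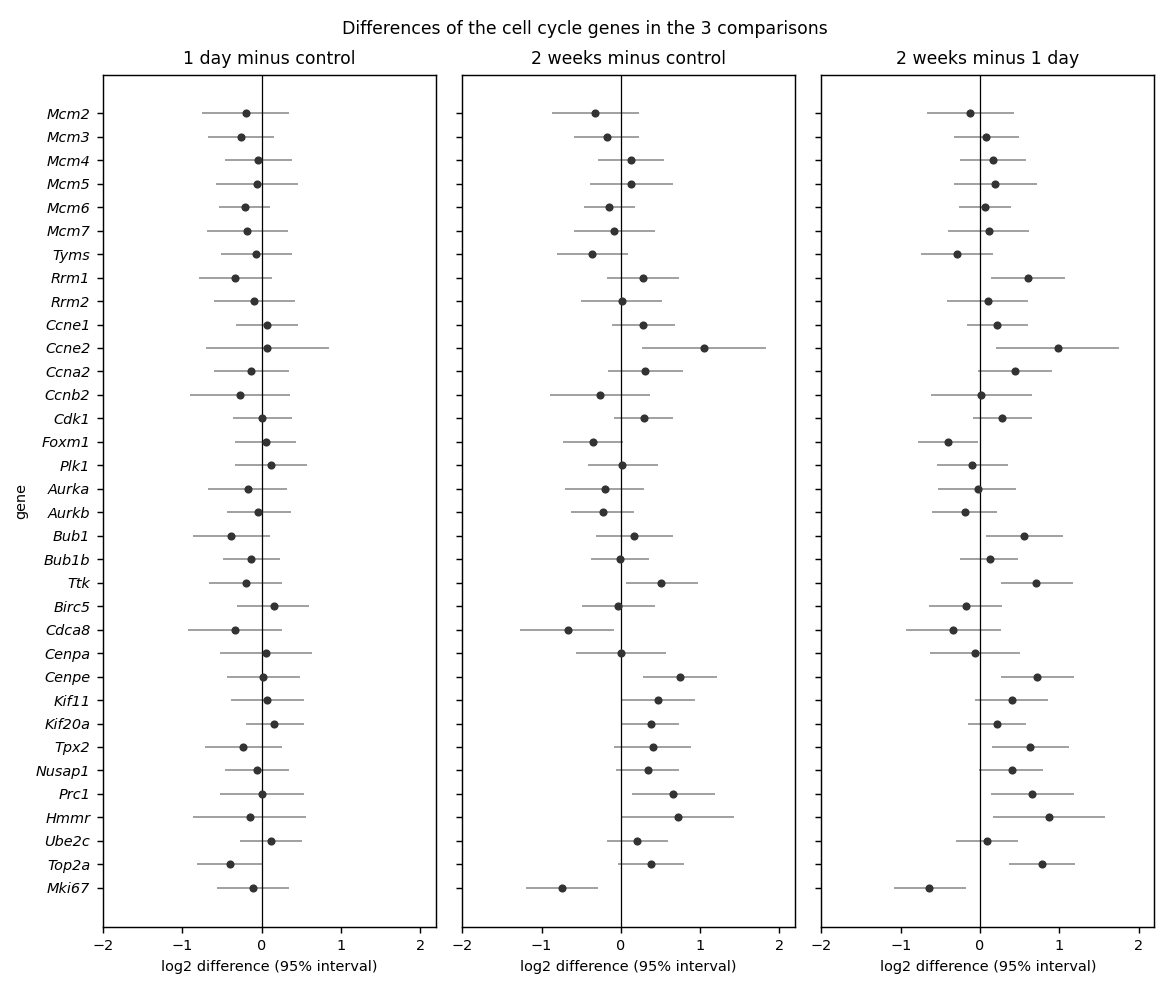
Log2 differences of the 34 cell cycle genes with 95% intervals from the limma fit, for 1 day against control, 2 weeks against control and 2 weeks against 1 day. All intervals cross 0 in the first panel, while Ccne2 (1.05), Cenpe (0.75), Hmmr (0.72) and Prc1 (0.66) lie to the right and Mki67 (-0.74) and Cdca8 (-0.67) to the left in the second.

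As a check of treatment and tissue, 3 genes that glucocorticoids are known to induce were read, and none was clearly higher in the treated groups. Fkbp5 read 4432, 5381 and 4535 in control, 2717, 3572 and 3626 after 1 day and 2587, 2491 and 1096 after 2 weeks, lower in both treated groups without overlap. Tsc22d3 read 40766, 44463 and 46275 in control, 19731, 33283 and 31310 after 1 day, lower without overlap, and 44274, 22712 and 45150 after 2 weeks. Per1 overlapped control in both groups. Per1 and Tsc22d3 differed from control after 2 weeks by -0.58 ± 0.24 and -0.29 ± 0.28 (SE), and none of the 3 passed (limma, adjusted p = 0.0551, 0.148 and 0.481 for Fkbp5, Per1 and Tsc22d3). These genes therefore lay on the side opposite to their known induction after 2 weeks, though Tsc22d3 stood at 0.03 without 2-week sample 2. Omp, on which samples were chosen, was 300267 to 411529 in control, 331835 to 490368 after 1 day, overlapping both other groups, and 478900 to 540038 after 2 weeks. Array medians were 1202 to 1447, and precision is set by having 3 arrays in each group.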

How the data were processed

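The authors deposited 1 table of intensity values on a linear scale, 26423 probes by 9 one-colour (Cy5) arrays. From 8 to 18 values per array lay below 0, as background-subtracted signals do; scanner, software and scaling target: not given in the sources used here. Per the labels' protocols, total RNA (1 µg, with an integrity number of 7 or more) was amplified before labelling. Array medians differed by at most 0.27 on the log2 scale, so values were used as deposited.

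Probes were named through the platform annotation, with 21876 holding 1 symbol and 4547 none, and 21825 gene IDs were found in RefSeq's table. The brightest probe stood for each of 2424 genes with several, which left 23631 features. Values were analysed as log2(intensity + 50) in 1 linear model of all 9 arrays (limma 3.58.1 under R 4.3.3, lmFit then eBayes), with Benjamini-Hochberg adjustment over all features; the script was tested on simulated data. Fold changes are on this scale and understate those of dim genes.

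The cell cycle genes, wider lists and markers were chosen with earlier results of these data known. Values on every array are given for up to 6 genes of smallest p in each comparison and always for Mki67, Top2a, Cdk1 and Mcm2; from each wider list, genes past the test or otherwise the 2 of smallest p; and Fkbp5, Per1, Tsc22d3 and Omp as a check. Foxm1, Hmmr, Klf1, Mpo and other single marker genes were added after their values were seen. Alternatives were other scalings, pseudocounts, filters, probe rules, moderation, array weights, 2-group fits, the replicate number as a block, and leaving out arrays. Promoter letters were searched in RefSeq sequence upstream of start sites only.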

Additional observations from a re-analysis of the deposited data

How the results depend on the processing

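Besides the fit reported, 22 settings were run. The median difference of the 34 cell cycle genes ran from -0.19 to -0.02 for 1 day against control, from 0.00 to 0.22 for 2 weeks against control and from 0.07 to 0.23 for 2 weeks against 1 day. These moves are under 0.131, the SD of the member median between single arrays of a group, which is not the error of a difference between groups. The 1-day median of -0.08 moved by more than its own size, to -0.19. The 2-week median of 0.13 moved by as much as its own size, to 0.00. The moves from 0.14, for 2 weeks against 1 day, were smaller than it. None of the 34 passed in the 1-day group against control or in the 2-week group against the 1-day group under any setting. In the 2-week group against control 1 passed under median centring and without the dimmest 50% of features (Mki67) and with array weights (Tyms), and 0 to 1 passed with 1 array left out (Mki67 without 2-week sample 1).

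The count over all features, against which the genes were read, depended on the fit. For the 2-week group against control it was 380, and became 1421 with quantile normalization, 1545 with median centring, 682 with cyclic loess, 777 with a pseudocount of 500, 131 with one of 16, 576 and 1135 without the dimmest 25% and 50% of features, 2738 with array weights, 0 in a fit of the 2 groups compared (the cause was not tested), and 1 to 953 with 1 array left out. For the 2-week against the 1-day group it was 22, and became 75, 50 and 53 under those scalings in the same order, 13 with a pseudocount of 500, 36 without the dimmest 25%, 134 with array weights, 2 in the 2-group fit, and 1 to 27 with 1 array left out. For the 1-day group against control it was 0 to 1 with 1 array left out. Without control sample 2 and 2-week sample 3, a setting chosen after seeing the data, the counts were 0 for 2 weeks against control and 2 for 2 weeks against 1 day.

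Of 65 named differences 6 changed sign under some setting, and the cause was not tested. Cdk1 after 1 day (0.01) became -0.09 with quantile normalization, -0.04 with median centring, -0.07 with cyclic loess, 0.00 with a pseudocount of 500, -0.13 with array weights, and -0.15 to 0.12 with arrays left out (-0.15 without control sample 2, -0.01 without 1-day sample 2). With arrays left out, Mki67 after 1 day ran from -0.20 to 0.01 (without 1-day sample 2). Mcm2 ran from -0.40 to 0.07 after 1 day (without control sample 2), from -0.52 to 0.10 for 2 weeks against control (without control sample 2 and 2-week sample 3) and from -0.25 to 0.03 for 2 weeks against 1 day (without 2-week sample 3). Tsc22d3 after 2 weeks ran from -0.46 to 0.03 (without 2-week sample 2). Of the named differences 4 passed only under another setting (Mki67, Fkbp5, E2f4 and Mybl2, all 2 weeks against control).

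With the replicate number as a block, 1 feature passed in the 2-week group against control, 8 in the 2-week against the 1-day group and 0 in the 1-day group against control, with 0 of the 34 genes in any. Deviations of same-numbered samples correlated at -0.282 to 0.136, and those of differently numbered samples at -0.338 to 0.308. No shared deviation of same-numbered samples was seen, which cannot decide whether the numbers pair the samples. The calls of Brca1, Melk and Kit ended in that fit (limma, adjusted p = 0.105 for each), and that of Melk also with a pseudocount of 16 (0.0556) and trend and robust moderation (0.0532).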

Other observations

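Of 11 measured markers of globose basal cells and neuronal progenitors, 1 fell in the 2-week group against control and 0 rose, beside 1.18% of all features lower and 0.432% higher, with 4 above and 7 below and a median of -0.16. Kit, a receptor tyrosine kinase of these progenitors and of mast cells, read 3952, 4703 and 5419 in control, 3256, 3369 and 3632 after 1 day, and 2453, 2254 and 1740 after 2 weeks. The groups did not overlap, and Kit fell 2.16-fold (log2 -1.11 ± 0.17 SE; limma, adjusted p = 0.039) after 2 weeks. Leaving out any 1 array other than 2-week sample 1 ended the call (limma, adjusted p 0.0645 to 0.148). So did the replicate block (limma, adjusted p = 0.105) and the fit of control and 2-week arrays alone, where no feature passed. Neurog1, a proneural factor, read 3122, 1685 and 2751 in control and 4009, 4834 and 3394 after 2 weeks, and was chosen after its values were seen. The summed intensity of the list was 117321 to 141504 in control, 124929 to 150105 after 1 day and 113895 to 127598 after 2 weeks.

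Of 16 antiproliferative and quiescence genes 0 passed in any comparison. After 2 weeks Ccng1, cyclin G1, differed from control by 0.57 and Gas1, a growth arrest gene, by -0.36 (limma, adjusted p = 0.101 and 0.155). After 1 day Foxo3 differed by 0.45 and Gas1 by -0.32. Between the treated groups Trp53inp1, a target of p53, differed by 0.67 and Ccng1 by 0.65 (limma, adjusted p = 0.154 and 0.162).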
